A study of Drosophila melanogaster with 24 samples.

Results

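Glycolysis was followed through 10 enzyme genes, Hex-A, Pgi, Pfk, Ald, Tpi, Gapdh1, Gapdh2, Pgk, Pglym78 and PyK, which were taken by symbol from the 15682 genes of the count tables, by a rule that names the genes and uses no measured value. All 10 were found, and all 10 passed the filter on low counts in every fit. Glycolysis splits glucose into pyruvate in the cytosol and yields ATP and NADH. Its early steps, run by hexokinase, phosphoglucose isomerase, phosphofructokinase, aldolase and triose phosphate isomerase, use ATP, and its later steps, run by glyceraldehyde-3-phosphate dehydrogenase, phosphoglycerate kinase, phosphoglycerate mutase, enolase and pyruvate kinase, return it. Insect flight muscle, which fills much of the thorax, burns carbohydrate at a very high rate, and its glycolysis is coupled to the mitochondria through the glycerol-3-phosphate shuttle more than through lactate.

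RNA was sequenced from 24 libraries of male Drosophila melanogaster at 10 days of age, in 8 groups of 3 that the labels call biological replicates. The 6 thorax groups carried an RNAi transgene driven in muscle by Mhc, against GFP or white (the controls), ProsB1 or ProsB5 (Prosbeta1 and Prosbeta5, catalytic subunits of the 20S proteasome), Ter94 (TER94, the fly p97 ATPase) or CG6272 (a bZIP transcription factor related to C/EBP). The driver acts in muscle, while the whole thorax was collected. The 2 head groups came from Mhc>+ flies, called isogenic controls, and from Mhc>Amyrel flies, in which the muscle driver was combined with Amyrel, an amylase-like gene. The heads are described as enriched for brain and retina.

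Reads assigned to genes ran from 28.9 to 79.2 M per thorax library and from 47.5 to 75.7 M per head library. Of the targeted fly genes 5 followed the labels and w, the target of white RNAi, did not. Prosbeta1 stood at 43.8 CPM under its own RNAi against 84.0 and 82.4 CPM with GFP and white RNAi, Prosbeta5 at 70.9 against 148 and 146 CPM, TER94 at 242 against 384 and 351 CPM, and CG6272 at 14.9 against 29.3 and 27.9 CPM. Amyrel stood at 6.41 CPM in Amyrel heads and 0.0841 CPM in control heads. The gene w was barely expressed in both control groups and not lower in the libraries labelled white RNAi, at 1.70 to 1.94 CPM, against 1.56 to 1.60 CPM with GFP RNAi, so it does not check that label. The 15 muscle markers summed to 24346 to 43566 CPM in thoraces and 4689 to 5389 CPM in heads, and the 10 photoreceptor markers to 81.2 to 1032 CPM and 63153 to 66646 CPM, so thoraces were rich in muscle RNA and heads in photoreceptor RNA, and the heads also held muscle RNA. The opsin ninaE was above 100 CPM in GFP RNAi replicates 2 and 3 (190 and 360 CPM) and in replicate 1 of white RNAi (406 CPM), and the accessory gland gene Acp36DE was over 5 CPM in GFP RNAi replicate 1, white RNAi replicates 1 and 2 and ProsB5 RNAi replicate 1. Counts below are therefore also given without these 3 and these 4 libraries where that changes them. GFP RNAi replicate 3 had the highest level of all 10 enzymes among the 15 libraries fitted with it, and also the highest muscle marker sum, 43566 CPM against 30882 to 32907 CPM in the other control libraries. In these bulk samples fewer muscle cells and less RNA per cell cannot be told apart.

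How much of the RNA of a thorax these enzymes make up was asked before any comparison. They took 1.70% ± 0.272 (SD, n = 3) of the reads with GFP RNAi, 1.35% ± 0.0522 with white RNAi, and 0.570% ± 0.0055 in control heads. Ald, the aldolase that cleaves fructose-1,6-bisphosphate, alone gave 53.1 to 55.6% of the 10 enzymes' summed level in the control thoraces. Levels of different genes can be compared only per length, so they were also divided by exon length. On the scale of CPM per kb of exon, Ald stood at 2614 ± 423 with GFP RNAi, followed by Gapdh1 at 1263 ± 458, PyK at 738 ± 148 and Gapdh2 at 604 ± 62.2. Pglym78 (399 ± 101), Pgi (362 ± 33.2), Tpi (346 ± 39.9) and Pgk (283 ± 61.7) lay close together, and the ranges over their 3 libraries overlapped between neighbours. Hex-A, the main hexokinase of muscle, at 203 ± 18.5 CPM per kb and Pfk, the phosphofructokinase that commits sugar to the pathway, at 149 ± 31.9 CPM per kb were the least abundant. Ald and Pfk, picked as top and bottom from these same GFP RNAi libraries, had ranges of 2333 to 3100 and 129 to 185 CPM per kb.

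**Figure D1:**
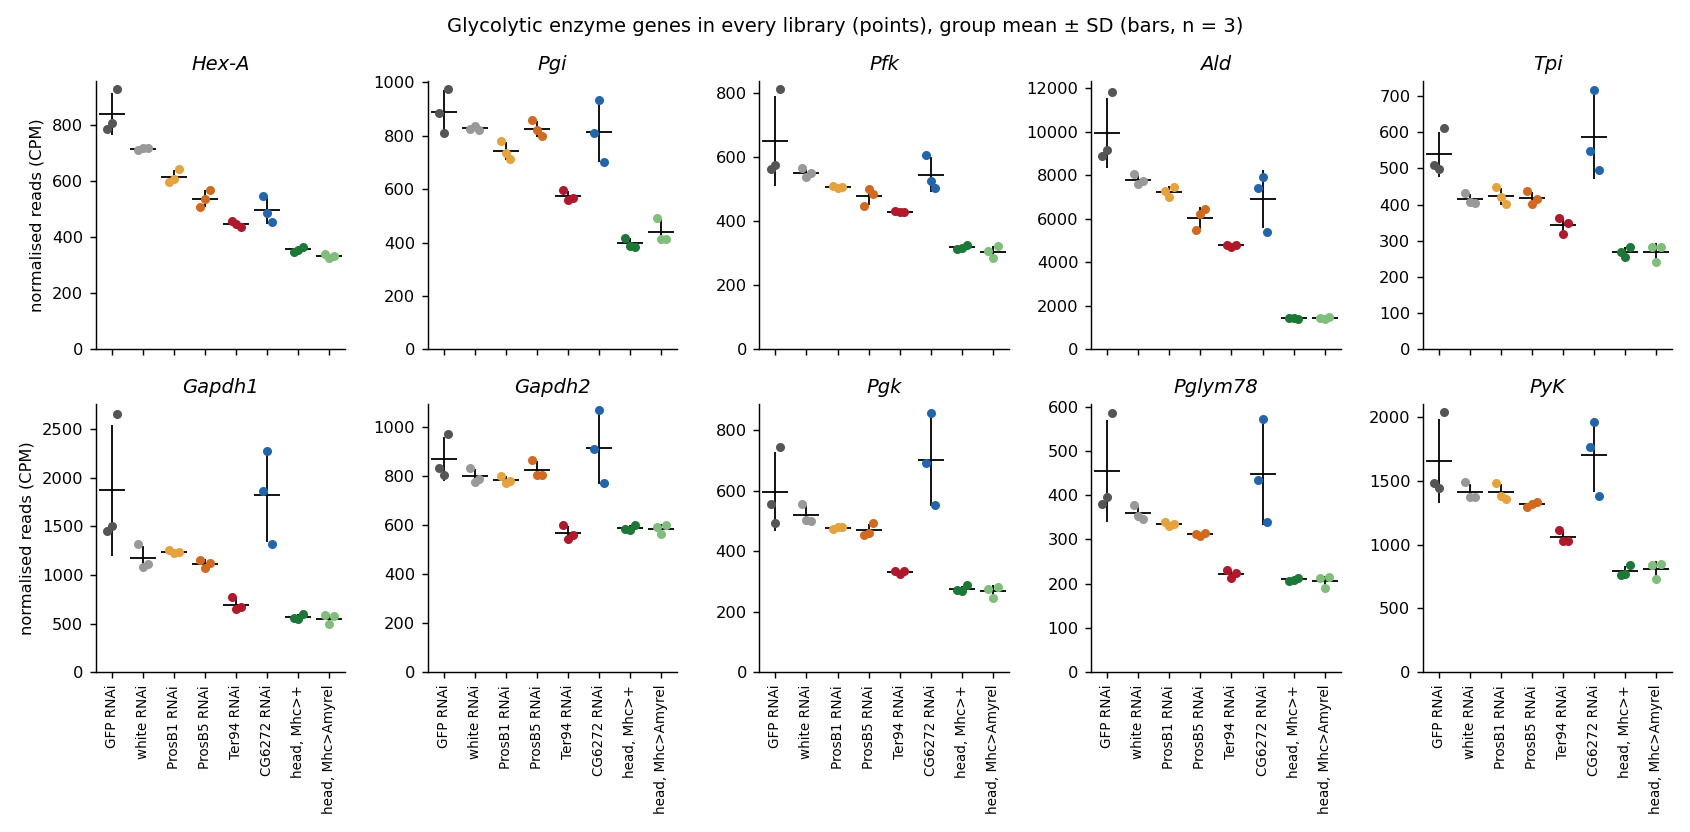
Normalised reads (CPM, linear axis from 0) of each enzyme gene in all 24 libraries, by group; points are libraries, horizontal bars the group mean and vertical lines ± SD (n = 3). Ter94 RNAi was the lowest of the 6 thorax groups for all 10 genes, GFP RNAi replicate 3 stood above its group for all 10, and CG6272 RNAi replicate 3 was the lowest of its group for all 10.

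The plot of levels by library shows that the 2 control lines differed from each other. In the means all 10 enzymes were lower with white than with GFP RNAi, and 4 of 10 were called lower (edgeR quasi-likelihood test, Benjamini-Hochberg adjusted p under 0.05 over 11262 genes), where 12.9% of all genes were called and 6.09% called lower. Gapdh1, 1 of a pair of glyceraldehyde-3-phosphate dehydrogenase genes, stood at 1456, 1500 and 2651 CPM in the GFP RNAi libraries and at 1321, 1086 and 1109 CPM in the white RNAi libraries (log2 change -0.67 ± 0.18 SE, adjusted p = 0.0288). The groups did not overlap, and most of the spread came from GFP RNAi replicate 3. Tpi, which interconverts the triose phosphates, stood at 509, 497 and 610 CPM with GFP RNAi and at 432, 408 and 404 CPM with white RNAi (-0.37 ± 0.08, adjusted p = 0.00729). Ald changed by -0.35 ± 0.09 (adjusted p = 0.0271) and Hex-A by -0.23 ± 0.06 (adjusted p = 0.0294). The other 6 changes ran from -0.33 to -0.10, with adjusted p from 0.0929 to 0.301. The count of 4 was 1 without white RNAi replicate 2, 1 without white RNAi replicate 3, 1 without the libraries high in ninaE and 0 without those high in Acp36DE. Each knockdown is therefore set against both control lines in turn.

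Knockdown of TER94 was the one under which every enzyme was called against both controls. All 10 enzymes fell against GFP RNAi and all 10 against white RNAi, from the hexokinase step to the pyruvate kinase step. In scaled CPM no library of the knockdown overlapped a control library for any of them. The share of all genes whose libraries separate in this way is not given, here or in later comparisons. The background was wide too: 51.2% of all genes were called against GFP RNAi, 25.8% called lower, and 55.1% and 27.6% against white RNAi. Called lower against both controls were 10 of 10 enzymes and 21.1% of all genes. The median change of the 10 enzymes was -0.75 against GFP and -0.59 against white RNAi on the log2 scale, where the median over all genes lay near 0. Together they took 1.02% ± 0.0179 of the reads (SD, n = 3), a share taken before scaling. That share was 1.30 to 1.41% with white RNAi and 1.54 to 2.01% with GFP RNAi. The scaling factors (TMM, all 24 libraries) were 1.08 to 1.09 with Ter94 RNAi and 0.909 to 0.939 in the control libraries. Scaled levels with Ter94 RNAi thus lie lower against the controls than read shares do, and single enzymes were not compared without scaling.

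The enzymes of the early steps are described in pathway order. Hex-A, which phosphorylates glucose, stood at 458, 449 and 436 CPM in the Ter94 RNAi libraries, at 712, 718 and 718 CPM with white RNAi and at 787, 807 and 929 CPM with GFP RNAi. All 3 knockdown libraries lay far below all 6 controls, with changes of -0.91 ± 0.06 (adjusted p = 2.22e-07) against GFP and -0.69 ± 0.06 (adjusted p = 1.98e-06) against white RNAi. Pgi, which turns glucose-6-phosphate into fructose-6-phosphate, stood at 596, 561 and 569 CPM, against 827, 836 and 822 CPM with white and 885, 812 and 975 CPM with GFP RNAi. Its changes were -0.64 ± 0.06 (adjusted p = 3.57e-06) and -0.53 ± 0.06 (adjusted p = 1.37e-05). Pfk, the committing phosphofructokinase, was the steadiest enzyme of this knockdown, at 432, 429 and 428 CPM, against 566, 538 and 550 CPM with white and 563, 576 and 811 CPM with GFP RNAi. It fell by 0.60 against GFP (SE 0.11, adjusted p = 0.00045) and by 0.37 against white RNAi (SE 0.11, adjusted p = 0.0105, and 0.0711 without the libraries high in Acp36DE).

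Ald cleaves the sugar, and Tpi acts on the triose phosphates that result. Ald stood at 4786, 4728 and 4817 CPM with Ter94 RNAi, at 8066, 7582 and 7748 CPM with white RNAi and at 8887, 9178 and 11809 CPM with GFP RNAi. The knockdown libraries lay within 90 CPM of each other, below every control library. The change was -1.06 ± 0.09 against GFP (adjusted p = 1.7e-06), a level of 0.478 of that control, and -0.71 ± 0.09 against white RNAi (adjusted p = 3.97e-05), a level of 0.610. Tpi stood at 364, 319 and 348 CPM against 432, 408 and 404 CPM with white RNAi, the smallest difference of the 10 from that control (-0.28 ± 0.08, adjusted p = 0.00809). It was not called against white RNAi without Ter94 RNAi replicate 2 (adjusted p = 0.0548) or without the libraries high in Acp36DE (0.131), and its change against GFP RNAi was -0.65 ± 0.08 (adjusted p = 1.9e-05).

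Of the later steps, Gapdh1 had the largest change of the 10 enzymes. It stood at 774, 647 and 666 CPM with Ter94 RNAi against the values for white and GFP RNAi given above (-1.43 ± 0.18, adjusted p = 3.78e-05, against GFP, and -0.76 ± 0.18, adjusted p = 0.00341, against white RNAi). Every knockdown library was below every control library. Gapdh2, the paralogue that runs the same oxidation, stood at 601, 544 and 559 CPM, against 832, 778 and 789 CPM with white and 835, 805 and 973 CPM with GFP RNAi. It fell by 0.62 against GFP (SE 0.07, adjusted p = 9.28e-06) and by 0.50 against white RNAi (SE 0.07, adjusted p = 4.93e-05). The ratio of Gapdh1 to Gapdh2 per kb of exon was 1.16 to 1.26 in the Ter94 RNAi libraries, 1.36 to 1.55 with white RNAi and 1.70 to 2.66 with GFP RNAi, ranges that did not overlap.

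Pgk, which makes ATP from 1,3-bisphosphoglycerate, stood at 336.4, 325.8 and 334.4 CPM with Ter94 RNAi, at 556, 503 and 500 CPM with white RNAi and at 556, 494 and 744 CPM with GFP RNAi (-0.85 ± 0.11, adjusted p = 4.25e-05, against GFP, and -0.65 ± 0.11, adjusted p = 0.000308, against white RNAi). Pglym78, the phosphoglycerate mutase of most tissues, stood at 231, 214 and 223 CPM, against 379, 353 and 346 CPM with white and 380, 395 and 586 CPM with GFP RNAi (-1.03 ± 0.12, adjusted p = 2.08e-05, and -0.70 ± 0.12, adjusted p = 0.000408). For both genes the groups were far apart and the 3 knockdown libraries close together. PyK, which makes pyruvate and ATP, stood at 1112, 1027 and 1028 CPM, against 1487, 1370 and 1369 CPM with white and 1485, 1441 and 2036 CPM with GFP RNAi. It fell by 0.65 against GFP (SE 0.10, adjusted p = 0.000213) and by 0.42 against white RNAi (SE 0.10, adjusted p = 0.00403, and 0.0781 without the libraries high in Acp36DE). Without those libraries 7 of 10 enzymes were called against white RNAi, while all 10 were called against GFP RNAi under every alternative run.

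**Figure D2:**
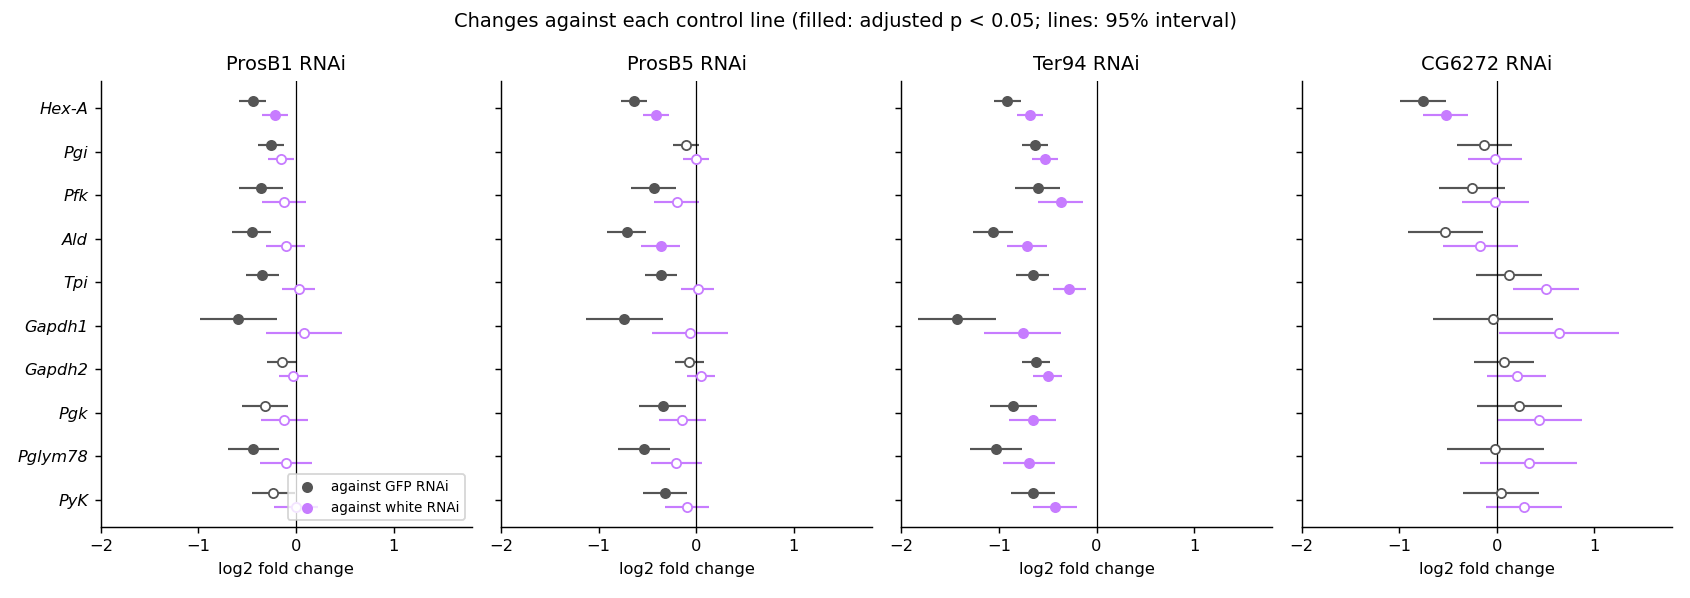
Log2 fold change of each enzyme gene in the 4 knockdowns against GFP RNAi (grey) and white RNAi (violet), n = 3 per group; points are fitted changes, filled where the adjusted p was under 0.05, and lines are 95% intervals. Under Ter94 RNAi all 20 points are filled and below 0; under ProsB1 and ProsB5 RNAi most points move towards 0 when white RNAi is the control; under CG6272 RNAi Hex-A alone is filled.

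Other RNA that moved in the same libraries is given beside this result. The muscle marker sum was 31672 to 32095 CPM with Ter94 RNAi, above the 30882 to 31503 CPM with white RNAi, and inside the 31011 to 43566 CPM with GFP RNAi, whose mean of 35828 CPM was higher. Of the 15 muscle markers 2 were called higher and 4 lower against both controls. The enzymes' summed level was 28.9 to 30.6% of the muscle marker sum with Ter94 RNAi, and 45.6 to 52.7% in the 6 control libraries. Of 6 gut markers 5 were called lower and 1 higher, and their sum was 72.3 to 1316 CPM against 5478 to 6379 CPM in the controls. Of 4 haemocyte markers 3 were called lower, of 10 photoreceptor markers 2 lower, and of 5 neuron markers 2 higher. The eye pigment gene w stood at 72.8 to 82.7 CPM with Ter94 RNAi and at 0.896 to 2.37 CPM in the other thorax groups. The part of these in the fall of the enzymes was not tested. The enzyme sum was 9691 CPM in Ter94 RNAi replicate 1, where the gut markers summed to 72.3 CPM, and 9242 and 9410 CPM in replicates 2 and 3, where they summed to 1249 and 1316 CPM.

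**Figure D3:**
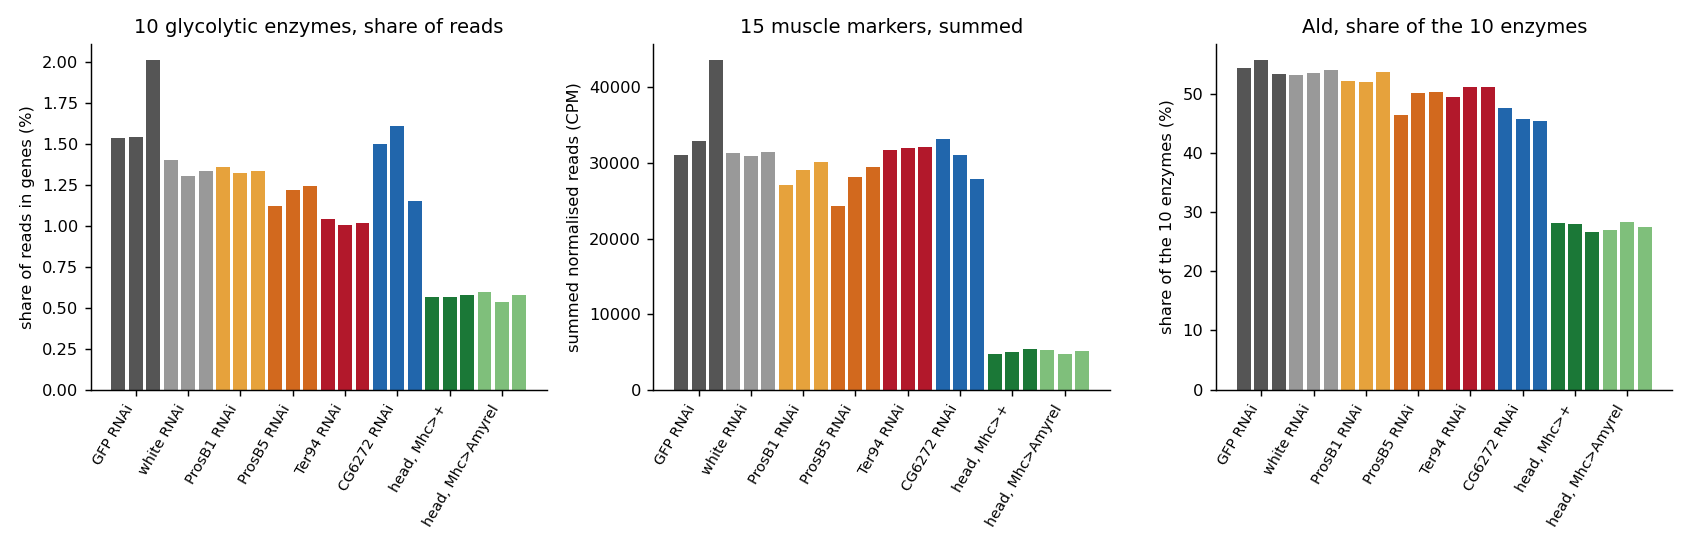
By library and group, the share of reads in genes taken by the 10 enzymes (%), the summed level of 15 muscle markers (CPM) and the share of Ald in the enzymes' summed level (%); bars are single libraries and axes start at 0. The enzymes took 1.01 to 1.04% of reads under Ter94 RNAi, the lowest of the thorax groups. The muscle marker sum there was 31672 to 32095 CPM, against 30882 to 31503 CPM with white RNAi. Of the 15 markers 4 were called higher and 4 lower against white RNAi.

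Knockdown of the proteasome subunits was compared in the same way. Against GFP RNAi 7 of 10 enzymes fell with ProsB1 RNAi (21.6% of all genes called, 9.94% lower) and 8 of 10 with ProsB5 RNAi (31.1% and 14.1%). Against white RNAi only Hex-A fell with ProsB1 RNAi (17.4% and 8.29% of all genes), and Hex-A and Ald with ProsB5 RNAi (23.7% and 10.4%). Called lower against both controls were therefore 1 of 10 and 2 of 10, where the shares of all genes were 4.13% and 6.46%. The median change with ProsB1 RNAi was -0.35 against GFP and -0.10 against white RNAi, and with ProsB5 RNAi -0.40 and -0.12. Muscle markers moved in the same comparisons: of 15, 6 were called lower with ProsB1 RNAi and 8 with ProsB5 RNAi against GFP RNAi, with medians of -0.34 and -0.32, and 1 and 4 lower against white RNAi, with 1 higher under ProsB5 RNAi and medians of -0.18 and -0.13. Of 4 haemocyte markers 2 and 4 were called higher against GFP RNAi, and 0 and 3 against white RNAi. Of 10 photoreceptor markers 5 and 10 were called lower against GFP RNAi (medians -5.32 and -5.37), and 0 and 4 against white RNAi. The fat body markers summed to 11625 to 12383 CPM with ProsB1 RNAi and 14165 to 17079 CPM with ProsB5 RNAi. In the control libraries they summed to 8842 to 11566 CPM. The part of these in the result was not tested. The choice of control line moved the count of enzymes more than the choice of subunit did.

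Hex-A stood at 597, 608 and 646 CPM with ProsB1 RNAi and at 509, 536 and 569 CPM with ProsB5 RNAi, all 6 below the 6 control libraries (712 to 929 CPM). With ProsB1 RNAi it changed by -0.44 ± 0.06 against GFP (adjusted p = 0.000298) and by -0.22 ± 0.06 against white RNAi (adjusted p = 0.0318). The call against white RNAi was lost without any of the 3 white RNAi libraries, without ProsB1 RNAi replicate 1 or 2, and without the libraries high in Acp36DE, with adjusted p from 0.0705 to 0.205. With ProsB5 RNAi Hex-A changed by -0.64 ± 0.06 against GFP (adjusted p = 1.76e-05) and by -0.41 ± 0.06 against white RNAi (adjusted p = 0.000676, and 0.0604 without the libraries high in Acp36DE).

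Ald stood at 7284, 6999 and 7467 CPM with ProsB1 RNAi and at 5472, 6225 and 6436 CPM with ProsB5 RNAi. With ProsB5 RNAi it changed by -0.71 ± 0.09 against GFP (adjusted p = 0.000145) and by -0.36 ± 0.09 against white RNAi (adjusted p = 0.0135), the latter lost without ProsB5 RNAi replicate 1 (0.0587) or the libraries high in Acp36DE (0.251). With ProsB1 RNAi its change was -0.46 ± 0.09 against GFP (adjusted p = 0.00375, and 0.062 without the libraries high in ninaE) and -0.11 ± 0.09 against white RNAi (adjusted p = 0.469). Both groups lay below all white RNAi libraries, and ProsB5 RNAi lay lower. Replicate 1 of ProsB5 RNAi, the lowest for Ald, also had the lowest muscle marker sum of all thorax libraries, 24346 CPM, and the highest Acp36DE level, 130 CPM. The part of these in the result was not tested.

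The other enzymes that fell against GFP RNAi with both subunits were Pfk (-0.36 and -0.44), Tpi (-0.35 and -0.36), Gapdh1 (-0.59 and -0.74) and Pglym78 (-0.44 and -0.54), with adjusted p from 0.00356 to 0.0345. Pgi was called with ProsB1 RNAi (-0.26 ± 0.06, adjusted p = 0.00909) and not with ProsB5 RNAi (-0.10, adjusted p = 0.238). With ProsB5 RNAi Pgk (-0.34 ± 0.11, adjusted p = 0.0321) and PyK (-0.32 ± 0.10, adjusted p = 0.032) were called. Their changes with ProsB1 RNAi, -0.32 (adjusted p = 0.0582) and -0.23 (adjusted p = 0.138), did not pass. Both ProsB5 RNAi calls were lost without ProsB5 RNAi replicate 1 (0.0918 and 0.0833) or replicate 2 (0.0704 and 0.0596). Gapdh2 was called with neither subunit. It stood at 773 to 802 CPM with ProsB1 RNAi and 804 to 867 CPM with ProsB5 RNAi, inside the control range of 778 to 973 CPM but for 1 library. Against white RNAi these 8 enzymes changed by -0.20 to 0.08, with adjusted p from 0.1 to 0.999. The count of 7 against GFP RNAi with ProsB1 RNAi was 4 without any 1 ProsB1 RNAi replicate and 1 without the libraries high in ninaE, and that of 8 with ProsB5 RNAi was 6 to 9 over the libraries left out one at a time.

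Whether the subunits differed from each other was tested directly. None of the 10 enzymes passed edgeR's test between ProsB5 and ProsB1 RNAi (5.97% of all genes were called), although 3 had a raw p under 0.05 before adjustment, and DESeq2 called 1, Hex-A (adjusted p = 0.0279). Those 3 were Hex-A (-0.19, 95% interval -0.33 to -0.06), Pgi (0.16, 0.02 to 0.29) and Ald (-0.26, -0.46 to -0.06). Ald passed edgeR's test without the libraries high in ninaE (adjusted p = 0.0324).

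TER94 knockdown was then set against the mean of the proteasome knockdowns, which asks whether the p97 ATPase and the proteasome core gave the same change. Called lower with Ter94 RNAi were 9 of 10 enzymes, where 57.1% of all genes were called and 29.6% called lower, with changes from -0.76 (Gapdh1, SE 0.16, adjusted p = 0.00139) to -0.30 (Tpi, SE 0.07, adjusted p = 0.00211). Pgi, which was nearly level with the controls under ProsB5 RNAi, changed by -0.46 ± 0.05 (adjusted p = 1.49e-05), and Gapdh2, called with neither subunit, by -0.51 ± 0.06 (adjusted p = 1.26e-05). Pfk changed by -0.20 ± 0.09 (adjusted p = 0.0754 in edgeR, and 0.0444 in DESeq2). All 3 Ter94 RNAi libraries lay below all 6 proteasome libraries for each of the 10 enzymes, without the share of all genes that separate so. In the same comparison 8 of 15 muscle markers were called higher and 1 lower (median 0.21), all 6 gut markers lower (median -2.83), 3 of 4 haemocyte and 3 of 5 fat body markers lower, and all 5 neuron markers higher. The part of these in the result was not tested.

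With CG6272 knockdown 6 of 10 enzymes had changes below 0 against GFP RNAi and 4 against white RNAi. It was not tested against the other knockdowns. Hex-A alone was called, lower, against GFP RNAi (18.1% of all genes called, 7.99% lower), against white RNAi (11.6% and 5.34%) and so against both (3.65% of all genes). It stood at 549, 488 and 454 CPM, all 3 below all 6 controls, a change of -0.76 ± 0.10 against GFP (adjusted p = 0.00232) and of -0.52 ± 0.10 against white RNAi (adjusted p = 0.0156). The call against white RNAi was lost without any 1 white RNAi replicate (adjusted p from 0.0607 to 0.072), and both calls were lost without the libraries high in ninaE (0.161 and 0.145) or in Acp36DE (0.0521 and 0.493). The median change of the 10 enzymes was -0.03 against GFP and 0.24 against white RNAi.

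The other 9 enzymes varied widely within this group. Gapdh1 stood at 1861, 2273 and 1319 CPM, Pgk at 693, 857 and 555 CPM and Pglym78 at 433, 572 and 340 CPM with CG6272 RNAi. Replicate 3 was the lowest of the group for all 10 enzymes, and the summed level ran from 11933 to 17293 CPM, while the muscle marker sum ran from 27858 to 33231 CPM. Tpi, at 549, 717 and 495 CPM, lay above every white RNAi library (404 to 432 CPM), with a change of 0.50 ± 0.15 that did not pass (adjusted p = 0.061, 95% interval 0.16 to 0.85) but did without CG6272 RNAi replicate 3 (0.0231) and in DESeq2 (0.0132). Ald, at 7423, 7900 and 5406 CPM, changed by -0.53 ± 0.17 against GFP RNAi (adjusted p = 0.0609, 0.036 without CG6272 RNAi replicate 2 and 0.00789 in DESeq2). Relative to the mean log2 level of the other 9 enzymes, Hex-A stood at -1.34 to -0.92 with CG6272 RNAi and at -0.69 to -0.26 in the other 15 thorax libraries. Ald made up 45.3 to 47.6% of the summed level, against 46.4 to 55.6% in the other thorax libraries. The labels name no batch for these libraries, whose titles are written in a different format.

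In heads, the question was whether Amyrel driven in muscle goes with a change of the enzymes. The heads held muscle RNA themselves, with marker sums of 4689 to 5389 CPM. Amyrel itself stood at 6.41 CPM in Amyrel heads and 0.0841 CPM in control heads. A change at a distance and one in muscle of the head cannot be told apart here. None of the 10 enzymes passed edgeR's test (1.51% of all genes were called). The raw p was under 0.05 for 0 of them, and DESeq2 called 0. The enzymes' share of reads was 0.570% ± 0.0055 in control and 0.570% ± 0.0334 in Amyrel heads (SD, n = 3). The largest change was that of Pgi, at 418, 388 and 386 CPM in control and 494, 412 and 414 CPM in Amyrel heads (0.16 ± 0.09, adjusted p = 0.468). Hex-A stood at 349.7, 356.0 and 365.5 CPM in control and 340.9, 327.9 and 334.4 CPM in Amyrel heads, the one enzyme whose groups did not overlap (-0.08 ± 0.04, adjusted p = 0.473). Over the 10 enzymes the 95% intervals reached from -0.20 (Gapdh1) to 0.36 (Pgi) on the log2 scale, which bounds the changes these libraries allow.

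Control heads were set against the control thoraces to show where the enzymes are most abundant. All 10 were lower in heads against GFP RNAi (77.3% of all genes called, 38.9% lower) and against white RNAi (78.3% and 39%), where 34.9% of all genes were called lower against both, with median changes of -1.11 and -0.86. Ald had the largest difference, at 1465, 1440 and 1419 CPM in heads and 7582 to 11809 CPM in the control thoraces (-2.78 ± 0.11, adjusted p = 1.97e-08, against GFP, and -2.42 ± 0.11, adjusted p = 4.31e-08, against white RNAi). Gapdh2 had the smallest, at 584, 581 and 603 CPM in heads and 778 to 973 CPM in the control thoraces (-0.55 ± 0.08, adjusted p = 0.000122, and -0.43 ± 0.08, adjusted p = 0.000656). Tissue, genotype and any library batch cannot be told apart here.

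**Figure D4:**
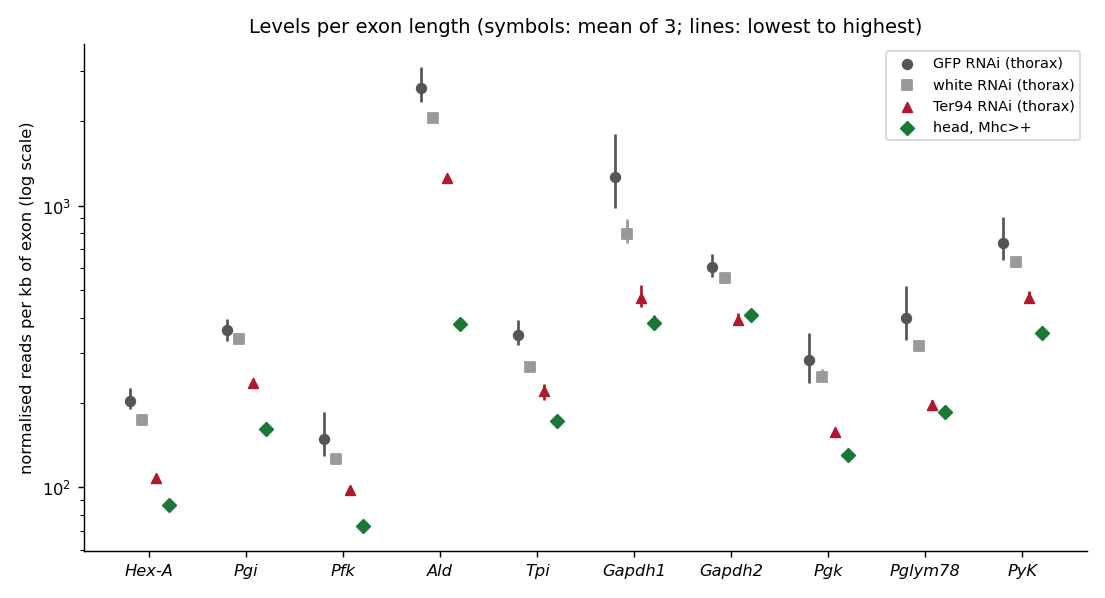
Normalised reads per kb of exon (log axis) of each enzyme gene in GFP, white and Ter94 RNAi thoraces and control heads; symbols are means of 3 libraries and lines run from the lowest to the highest. Ald stands above the other enzymes in thoraces, and in heads Gapdh2, Gapdh1, Ald and PyK lie between 353 and 408.

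The order of the enzymes differed between the head and thorax libraries, with the same limit. Per kb of exon Gapdh2 led in control heads at 408 ± 8.503 CPM, with Gapdh1 at 384 ± 20.5, Ald at 378 ± 6.09 and PyK at 353 ± 18.02, while Ald led in every thorax group. Ald gave 26.7 to 28.4% of the enzymes' summed level in heads and 45.3 to 55.6% in thoraces, and the ratio of Gapdh1 to Gapdh2 was 0.8548 to 0.9753 in the 6 heads and 1.16 to 2.66 in the 18 thoraces. Heads lay below all thorax libraries for 8 of 10 enzymes, a count given without the share of all genes. The exceptions were Gapdh2 and Pglym78, for which Ter94 RNAi thoraces reached into the range of heads. Relative to muscle markers the enzymes were more abundant in heads, with a summed level of 98.8 to 111% of the muscle marker sum.

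The remaining carbohydrate genes were examined in lists. Eno, the enolase between Pglym78 and PyK, stood at 1366, 1221 and 1257 CPM with Ter94 RNAi, at 2186, 2044 and 2026 CPM with white RNAi and at 2118, 2098 and 2870 CPM with GFP RNAi. It fell by 0.89 (SE 0.10, adjusted p = 1.11e-05) and by 0.71 (SE 0.10, adjusted p = 6.19e-05) against GFP and white RNAi. With the proteasome knockdowns it was called lower against GFP RNAi (-0.31 ± 0.10, adjusted p = 0.0383, for ProsB1 and -0.37 ± 0.10, adjusted p = 0.0125, for ProsB5 RNAi) but not against white RNAi (adjusted p = 0.377 and 0.182). ImpL3, the lactate dehydrogenase, was rare, at 26.5 to 56.1 CPM over the proteasome and Ter94 RNAi libraries and 30.2 to 38.8 CPM in the controls, and was not called in any knockdown, with adjusted p from 0.0985 to 0.648.

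Of the 9 pathway neighbours 5 fell with Ter94 RNAi against both controls and 0 rose, where 21.1% of all genes fell. Besides Eno these were Gpdh, the cytosolic glycerol-3-phosphate dehydrogenase (803, 802 and 800 CPM against 992 to 1246 CPM in the controls, with changes of -0.43 ± 0.07 and -0.63 ± 0.07), its mitochondrial partner Gpo-1, fbp, the fructose-1,6-bisphosphatase of gluconeogenesis (-0.76 ± 0.08 and -0.43 ± 0.08), and CG1516, a pyruvate carboxylase. Gpo-1 and CG1516 are named outside the rule, after their values were seen. Both dehydrogenases of the glycerol-3-phosphate shuttle thus fell with the enzymes. Of 12 genes of glycogen and trehalose 7 fell, against the same 21.1%, among them UGP, which makes UDP-glucose (-1.29 ± 0.07, adjusted p = 3.85e-08, and -0.85 ± 0.07, adjusted p = 8.91e-07), Treh, the trehalase that frees glucose from blood sugar (-0.31 ± 0.05 and -0.51 ± 0.05), and CG33138, the glycogen branching enzyme (-0.58 ± 0.05 and -0.31 ± 0.05).

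All 7 genes of the pentose phosphate branch fell with Ter94 RNAi against both controls, where 21.1% of all genes did. Zw, the glucose-6-phosphate dehydrogenase that opens the branch, stood at 42.1, 49.8 and 48.5 CPM against 89.9 to 112 CPM in the controls (-1.19 ± 0.11, adjusted p = 3.16e-06, and -1.06 ± 0.11, adjusted p = 7.43e-06). Pgd changed by -0.70 ± 0.10 and -0.85 ± 0.10, and CG30499, the ribulose phosphate epimerase, by -0.70 ± 0.10 and -0.56 ± 0.10. Of 7 genes of pyruvate entry into mitochondria 4 fell, among them CG14290, a mitochondrial pyruvate carrier (-1.04 ± 0.09 and -0.79 ± 0.09), and l(1)G0334 and CG7430, parts of pyruvate dehydrogenase. Of 14 tricarboxylic acid cycle genes 8 fell, with Acon, the aconitase, at 2640, 2571 and 2674 CPM against 5337 to 7517 CPM in the controls (-1.32 ± 0.09 and -1.08 ± 0.09, adjusted p = 2.76e-07 and 1.2e-06). Of 8 regulators 3 fell: sima, the fly HIF-1 alpha (-0.42 ± 0.04 and -0.48 ± 0.04), ERR, a nuclear receptor known to drive glycolytic genes in larvae (-0.41 ± 0.07 and -0.70 ± 0.07), and bigmax, the partner of the sugar sensor Mio (-0.42 ± 0.07 and -0.31 ± 0.07). No gene of these 6 lists rose against both controls with Ter94 RNAi.

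**Figure D5:**
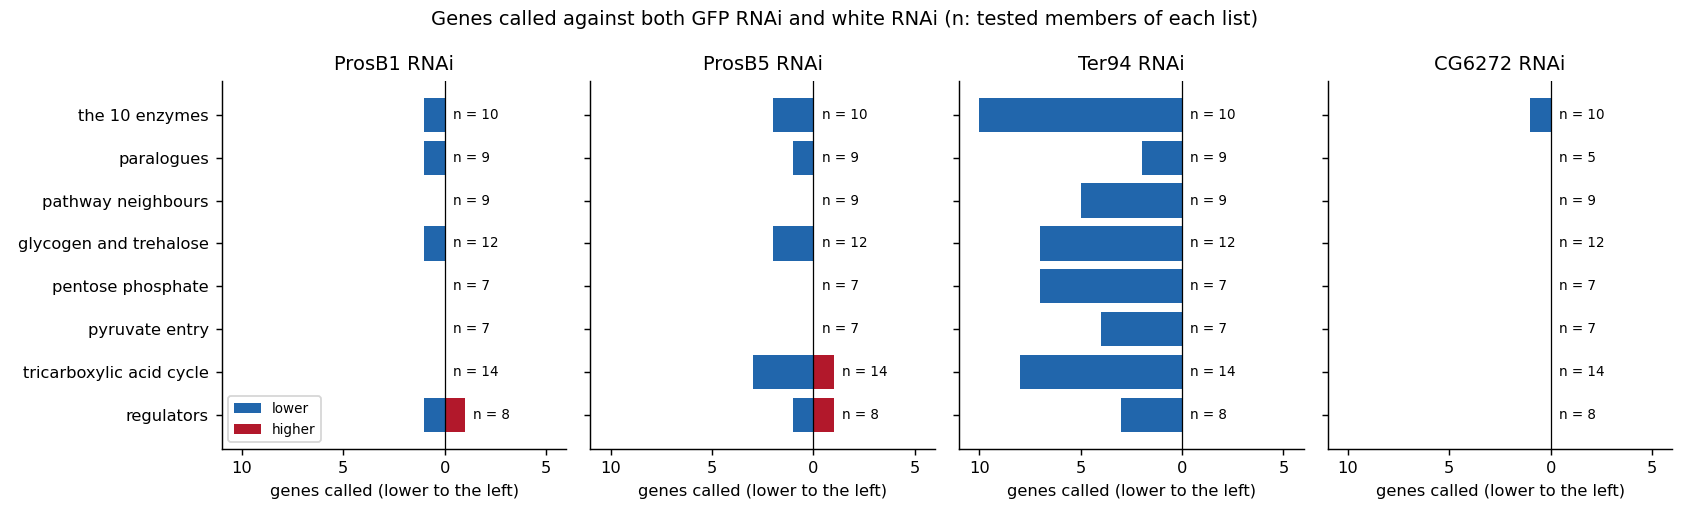
Number of genes called lower (blue, to the left) or higher (red, to the right) against both GFP and white RNAi in each list of carbohydrate genes, by knockdown; n is the number of list members tested. Ter94 RNAi has 10 of 10 enzymes and 7 of 7 pentose phosphate genes lower, while the lists hold 0 to 3 lower genes under the proteasome knockdowns and 0 outside the enzymes under CG6272 RNAi.

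With ProsB1 and ProsB5 RNAi 4.13% and 6.46% of all genes were called lower against both controls. Of 12 genes of glycogen and trehalose 1 and 2 were lower, and of 14 tricarboxylic acid cycle genes 0 and 3. Of 8 regulators 1 and 1 were lower, and of 9 tested paralogues 1 and 1. Pathway neighbours, pentose phosphate and pyruvate entry held 0. Glycogenin, the primer of glycogen, fell with both subunits (-0.37 ± 0.08 and -0.39 ± 0.08 against white RNAi, adjusted p = 0.00604 and 0.00375), and PhKgamma, a phosphorylase kinase subunit, with ProsB5 RNAi (-0.17 ± 0.06, adjusted p = 0.0439). The gene bigmax fell with both (-0.24 ± 0.07 and -0.36 ± 0.07 against white RNAi), and Hph, the HIF prolyl hydroxylase, rose with both (0.35 ± 0.08 and 0.27 ± 0.08). With ProsB5 RNAi 3 tricarboxylic acid cycle genes fell against both controls, Nc73EF, Acon and SdhB (-0.45, -0.38 and -0.37 against white RNAi), and 1 rose. With CG6272 RNAi 0 genes of these 7 lists were called against both controls, where 3.65% of all genes were called lower.

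Paralogues of the enzymes held little RNA. Of 13 such genes 9 passed the low-count filter of the 15-library fit. Hex-C, another hexokinase, had group means of 104 to 139 CPM, CG7059 of 4.74 to 9.77 CPM, CG7069 of 2.03 to 5.90 CPM and CG9961 of 0.459 to 2.62 CPM, all named here for their levels, and the other 9 stayed at or under 0.624 CPM in every group. CG7069, a pyruvate kinase paralogue with means of 5.63 and 5.90 CPM under GFP and white RNAi, fell with ProsB1 RNAi (-0.36 ± 0.08 against white RNAi, adjusted p = 0.00594), ProsB5 RNAi (-0.54 ± 0.08, adjusted p = 0.000456) and Ter94 RNAi, in which it stood at 3.83 to 4.06 CPM. CG9961, a phosphoglycerate kinase paralogue near 2 CPM, fell with Ter94 RNAi.

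How alike the enzymes were was described over the 18 thorax libraries, which share their groups and differ in depth, and no test is given. The correlation of each enzyme with the mean of the other 9, on centred log2 levels, was 0.98 for Pglym78, 0.97 for PyK, 0.96 for Gapdh1 and 0.93 for Pgk, and it was lowest, at 0.62, for Hex-A. The other 5 lay between 0.87 (Pfk) and 0.91 (Gapdh2). After group means were removed the values were 0.99 for PyK, 0.97 for Pglym78 and Gapdh1, 0.96 for Pgk, 0.91 for Gapdh2, 0.90 for Ald, 0.85 for Pgi and Tpi, 0.69 for Pfk and 0.62 for Hex-A. Of 8408 genes with enough reads, those most like the enzymes' mean profile were Eno (r = 0.98), CG3009 (0.98), CG14290 (0.97), sesB, the adenine nucleotide translocase of mitochondria (0.96), and CG7430 (0.96), and ImpL3 had r = -0.48.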

How the data were processed

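The deposited values are unnormalised counts of reads for each gene in 24 libraries. Per the labels' protocols the libraries came from a TruSeq stranded mRNA kit, and STAR and BDGP5 are named in the submitters' processing notes. The sources used here do not give their versions, the annotation, the counting tool or its strand setting. The 5 summary rows per file (19.4 to 31.2% of reads) were left out.

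The tests used edgeR 4.0.16 (R 4.3.3): filterByExpr (minimum count 10, minimum total 15), TMM scaling, a quasi-likelihood fit and two-sided F tests, adjusted by Benjamini-Hochberg over all genes tested. The 15 thorax libraries other than CG6272 RNAi shared 1 fit. CG6272 RNAi was fitted with GFP and white RNAi, heads apart, and control heads with the control thoraces, 14 comparisons in all. SE is the size of the log2 change over the root of F. CPM levels use TMM factors over all 24 libraries. Exon lengths, neighbours and newer symbols come from a BDGP6 annotation, so no positions are given. Without a stated strand setting, reads of Ald (338 bp), Pgk (65 bp), Pglym78 (6 bp) and Eno (362 bp) could be shared with a gene on the opposite strand. Paralogue reads may be split. The procedure was tested on simulated data with the same spread for every gene. That setting differs from these data, so it does not check the calls made here.

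The members and lists were chosen with earlier results of these data known. Named were the 10 enzymes, Eno and ImpL3, up to 3 called genes per list and comparison by adjusted p, the 5 genes most like the enzymes' mean profile (minimum 5 CPM), and the targeted genes; lists are not all shown in every comparison. Residual correlations of libraries with the same replicate number were over 0.1 for ProsB1 and ProsB5 with GFP RNAi (0.128 to 0.434 and 0.532 to 0.764). The same held for ProsB5 with ProsB1 RNAi (0.147 to 0.463) and the head groups (0.155 to 0.239). These values alone do not show that libraries were paired. Acp36DE, for example, was high in replicate 1 of both GFP and ProsB5 RNAi. Alternatives tried were relative log expression scaling, DESeq2 1.42.0, no filter, replicate number in the model, 1 fit of 18 thoraces, the mean of both controls, and leaving out libraries. Counting error understates technical error, since reads carry no molecular identifiers.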

Additional observations from a re-analysis of the deposited data

Results flagged for a closer look

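Enzymes whose change differed between TER94 knockdown and the mean of the proteasome knockdowns, by edgeR's test of that difference, numbered 9 of 10. The log2 differences, Ter94 RNAi minus the mean of ProsB1 and ProsB5 RNAi, were -0.37 for Hex-A, -0.46 for Pgi, -0.48 for Ald and -0.30 for Tpi among the early steps. Among the later steps they were -0.76 for Gapdh1, -0.51 for Gapdh2, -0.52 for Pgk, -0.54 for Pglym78 and -0.38 for PyK. In this comparison 57.1% of all genes were called, as were 9 of 15 muscle markers (8 higher), 6 of 6 gut markers (lower), 3 of 4 haemocyte markers (lower) and 5 of 5 neuron markers (higher), whose part in the result was not tested. All 3 Ter94 RNAi libraries lay below all 6 proteasome libraries for each of the 9, but the share of all genes that separate in this way is not given.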

How the results depend on the processing

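Over the 14 comparisons the 140 enzyme results were recomputed under 1840 alternatives in all. Of these 1734 kept their side of the threshold, 83 lost the call and 23 gained it. Among changes called in either fit 0 reversed direction, while some uncalled changes did and are counted in the 1734. Gapdh1 with CG6272 RNAi against GFP RNAi, for example, ran from -0.24 to 0.33. Replicate number in the model (the replicate block) changed no call of an enzyme and left 10 enzymes called with Ter94 RNAi against either control, 7 and 8 against GFP RNAi with ProsB1 and ProsB5 RNAi, and 0 between the subunits and in heads.

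Counts of enzymes that moved by over 1.5 times follow. In DESeq2 they were 2 for ProsB1 against white RNAi and against both controls, 1 for ProsB5 against ProsB1 RNAi, and 2 for CG6272 against GFP and 2 against white RNAi. With no filter ProsB1 against white RNAi and against both controls gave 0. In 1 fit of 18 thoraces white against GFP RNAi gave 0, ProsB1 RNAi 3 against GFP, 0 against white and 0 against both, ProsB5 RNAi 1 against white and 1 against both, and CG6272 RNAi 2 against GFP and 4 against white RNAi. Against the mean of both controls ProsB1 RNAi gave 3 and ProsB5 RNAi 4. Without the libraries high in ninaE the counts were 1 for white and 1 for ProsB1 against GFP RNAi, 4 for ProsB5 against white RNAi and 4 against both, 1 for ProsB5 against ProsB1 RNAi, and 0 for CG6272 RNAi against either control and both. Without those high in Acp36DE they were 0 for white against GFP RNAi, for ProsB1 and ProsB5 against white RNAi and both, and for CG6272 RNAi against either control and both.

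With 1 library left out at a time the counts ran from 1 to 6 for white against GFP RNAi, 4 to 9 and 0 to 1 for ProsB1 RNAi against GFP and white RNAi, 6 to 9 and 1 to 2 for ProsB5 RNAi, 10 and 9 to 10 for Ter94 RNAi, and 1 to 2 and 0 to 2 for CG6272 RNAi. Against both controls they ran from 0 to 1 for ProsB1, 1 to 2 for ProsB5, 9 to 10 for Ter94 and 0 to 1 for CG6272 RNAi. A library left alone with 1 partner is assumed to vary like the other groups. The cause of these changes was not tested; leaving out libraries leaves fewer samples.

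Counts over all genes moved as well. DESeq2 called 1025 genes instead of 672 for ProsB5 against ProsB1 RNAi, 2355 instead of 1246 for CG6272 against white RNAi and 475 instead of 162 in heads. The fit of 18 thoraces called 702 instead of 1451 for white against GFP RNAi, 1580 instead of 2434 and 1208 instead of 1958 for ProsB1, 2258 instead of 3501 and 1640 instead of 2670 for ProsB5, 273 instead of 672 between the subunits, and 3594 instead of 1951 and 3419 instead of 1246 for CG6272 RNAi. Without the libraries high in ninaE 536, 952 and 1411 genes were called for white, ProsB1 and ProsB5 against GFP RNAi, and 43 and 220 for CG6272 RNAi. Without those high in Acp36DE 304 were called for white against GFP RNAi, 632 and 529 for ProsB1 and ProsB5 against white RNAi, 2255 for ProsB5 against GFP RNAi, 300 between the subunits, and 455 and 70 for CG6272 RNAi. With 1 library left out at a time the counts over all genes ran from 25 to 207 in heads, 881 to 2686 and 347 to 2440 for CG6272 against GFP and white RNAi, 371 to 613 between the subunits, 828 to 1292 for white against GFP RNAi and 1250 to 1565 for ProsB1 against white RNAi, so the shares of all genes called in these comparisons depend on single libraries. With 3 libraries a group, changes of the size of Gapdh1 against white RNAi carry wide intervals.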
